A study of Mus musculus with 18 samples.

Results

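Potassium chloride (KCl) exposure for 6 h was compared with exposure for 1 h in cultured mouse cortical neurons, to ask which transcripts of the first hour had gone down and which others had come up later in the same kind of stimulation. The comparison took 6 of the 18 arrays of the series: the 3 arrays of set A labelled 6 h against the 3 of set A labelled 1 h, chosen by their titles. The neurons came from postnatal day 0 mice per the labels, which also use the word embryonic. They had been kept for 7 days in vitro and received KCl at 55 mM per the sample labels, or 50 mM per the series text. All 6 cultures carried KCl, and strain and genotype are not stated in the labels. The 3 arrays of a time are described as independent experiments. No untreated cultures of 1 h or 6 h are named, so time in altered medium and depolarization cannot be told apart. Biotin-labelled cRNA from 200 ng of total RNA was hybridised to Affymetrix arrays. A probe set, a group of short probes against 1 transcript, gave 1 linear signal per array, here called units.

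Raised extracellular potassium depolarizes the neuronal membrane and opens voltage-sensitive calcium channels, and calcium entry activates kinases that act on transcription factors already present in the cell, such as CREB and SRF. Immediate early genes, among them Fos and Egr1, are switched on first and without new protein synthesis, and many of their transcripts and proteins are short-lived. Genes of a later wave include secreted peptides, growth factors and synaptic proteins.

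The arrays of the 2 times were close in brightness, but slightly dimmer at 6 h without overlap. Of the 22626 probe sets, 71.2% to 71.8% lay above background at 1 h and 69.2% to 70.3% at 6 h. Median signals ran from 188 to 196 units at 1 h and from 174 to 181 units at 6 h. Background was set at 75.4 units, the value that 95% of 27 bacterial control probe sets did not exceed. Over probe sets above background, log2 signals of 2 arrays correlated at 0.928 to 0.953 within 1 h, at 0.957 to 0.965 within 6 h and at 0.904 to 0.932 between the times. Neuronal markers were bright at both times, and Stmn2, a tubulin-binding protein of neurons, measured 25058 units at 1 h and 25947 at 6 h. The summed signal of 18 neuronal markers ranged from 80729 to 85265 units at 1 h and from 80680 to 86460 at 6 h, with Bcl11b alone below background at both times. The summed signal of 15 astrocyte markers ranged from 55439 to 61254 units at 1 h and from 63588 to 69027 at 6 h, so these sums did not overlap. Without vimentin (Vim), an intermediate filament that other cells also make, the other 14 summed to between 44101 and 51739 units at 1 h and between 47493 and 51785 at 6 h, which did overlap. The sums of 13 microglial markers, 1354 to 1960 and 1431 to 2061 units, and of 15 vascular and fibroblast markers, 3396 to 3598 and 3415 to 3861 units, overlapped. Astrocyte markers were thus detected at both times, and the part of these cells in the results below was not tested. In bulk RNA, fewer cells of a type and less RNA per cell cannot be told apart. The Actb 5′ to 3′ signal ratio, a sign of RNA and cRNA length, was 0.669 ± 0.0496 at 1 h and 0.574 ± 0.0204 at 6 h (SD, n = 3), without overlap (exact two-sided permutation test, p = 0.1, the smallest value 3 against 3 can give). The same ratio for Gapdh was 1.17 ± 0.103 and 1.21 ± 0.0427 (exact p = 0.7).

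Of the 22626 probe sets, 1805 differed between the times (limma, adjusted p under 0.05, 7.98%), 841 higher at 6 h (3.72%) and 964 lower (4.26%). All 1805 had arrays that did not overlap between the times. Read on 1 probe set per gene, 1155 of 12393 genes differed (9.32%), of which 514 rose (4.15%) and 641 fell (5.17%), and the arrays of the times did not overlap for 28.9% of genes. The falls exceeded 2-fold for 200 of 641 genes (31.2%) and the rises for 146 of 514 (28.4%). Across all genes the median log2 difference was -0.08. When each array was centred on its own median, the median log2 difference over all probe sets moved from -0.07 to 0.03, and 1178 probe sets were higher and 656 lower (64.2% higher, against 46.6% on the deposited scale). The excess of falls over rises therefore depended on the scaling. The counts also moved when single arrays were left out. Without 6 h replicate 2, 6 h replicate 3 or 6 h replicate 1, limma called 771, 942 or 1024 probe sets. Without 1 h replicate 3, 1 h replicate 1 or 1 h replicate 2, it called 1073, 1261 or 1792. A fit with an array left out also has less power. With the Actb ratio as a term in the fit, limma called 90, and the 40 genes with the largest changes kept 22 calls. Because this ratio did not overlap between the times, that fit cannot tell RNA length from time, and the lost calls have no assigned cause. The part of RNA length in the differences was not tested.

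**Figure D1:**
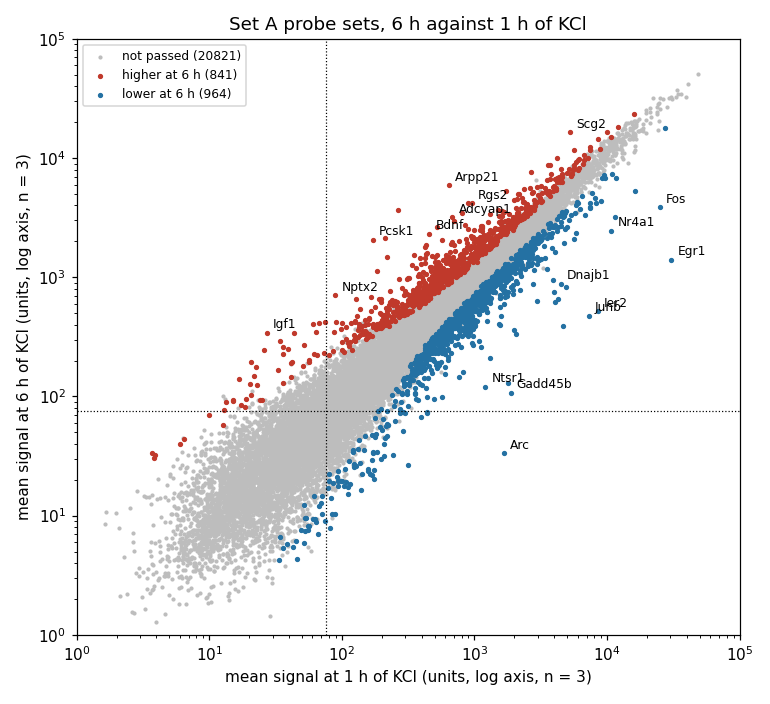
Mean signal of each set A probe set at 1 h (horizontal, units, log axis) and 6 h (vertical, units, log axis), n = 3 arrays each, with 841 probe sets higher at 6 h in red, 964 lower in blue and the rest in grey; dotted lines mark the background of 75.4 units. Arc lies far below the diagonal and under the background line at 6 h, while Arpp21, Pcsk1 and Igf1 lie far above the diagonal.

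Of the 20 largest falls, 11 belonged to the list of immediate early nuclear genes. Arc and Gadd45b, also among these 20, were filed in another list, that of synaptic and signalling effectors. Of 30 immediate early nuclear genes on the array, most of them transcription factors, 14 fell and 2 rose, against 5.17% and 4.15% of all genes. The other 14 did not pass the test, and the list's median log2 difference was -0.72 beside -0.08 for all genes. The 30 genes together gave 109480 to 133160 units at 1 h and 26928 to 29438 units at 6 h, which did not overlap. Some of these genes, and of those in the other lists, are known from studies of this kind of stimulation, so the list is not independent evidence of its direction.

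Egr1, a zinc finger transcription factor, gave 34354, 27070 and 30032 units in the 3 arrays at 1 h and 1401, 1554 and 1231 units at 6 h. Every array at 1 h was far above every array at 6 h, and the fitted fall was 21.6-fold (log2 -4.43, SE 0.129, limma adjusted p = 1.62e-07). Junb, which forms AP-1 dimers with Fos proteins, gave 7422, 6423 and 8022 units at 1 h against 448, 466 and 507 at 6 h. The times were again well separated (log2 -3.89, SE 0.113, adjusted p = 1.62e-07). Fos, the AP-1 subunit that pairs with Jun proteins, gave 30344, 23802 and 20400 units at 1 h and 3538, 4544 and 3505 at 6 h. Fos fell 6.37-fold (log2 -2.67, SE 0.166, adjusted p = 2.07e-05) but remained well above its 0 h arrays, which had measured 233, 189 and 311 units.

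The remaining AP-1 and EGR family members differed in how far they fell. Egr2 fell from 4614 ± 477 to 390 ± 6.56 units (log2 -3.51) and Egr4 from 2072 ± 504 to 331 ± 87.2 (log2 -2.59). Fosb (log2 -2.66) and Jun (log2 -2.54) fell about as far as Fos, and Jund, a further AP-1 subunit, fell from 4165 to 2448 units (log2 -0.76). Outside these families, Ier2, a nuclear protein of the immediate early class, fell from 8524 ± 1380 to 519 ± 53.6 units (log2 -3.99). Btg2, an antiproliferative protein that binds the deadenylase complex, also fell (log2 -2.66), as did Klf4, a zinc finger factor (log2 -2.35), and Srf, which drives many immediate early genes (log2 -0.80). Nr4a1, an orphan nuclear receptor, gave 10923, 9986 and 11351 units at 1 h and 2284, 2793 and 2278 at 6 h. It had the smallest fall of the 20 largest (log2 -2.13, SE 0.115, adjusted p = 9.24e-06), and its lowest array at 1 h was still well above its highest at 6 h.

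Crem and Nfil3 went the other way. Crem, whose products include the repressor ICER, gave 324, 402 and 360 units at 1 h and 1147, 1271 and 1194 at 6 h. The arrays did not overlap, and Crem rose 3.24-fold (log2 1.70, SE 0.130, adjusted p = 9.56e-05). Nfil3, a repressor of the bZIP class, rose from 2822 to 4418 units (log2 0.68). Klf6 (log2 0.46, adjusted p = 0.12) and the clock gene Per1 (log2 0.09, adjusted p = 0.72) did not pass.

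**Figure D2:**
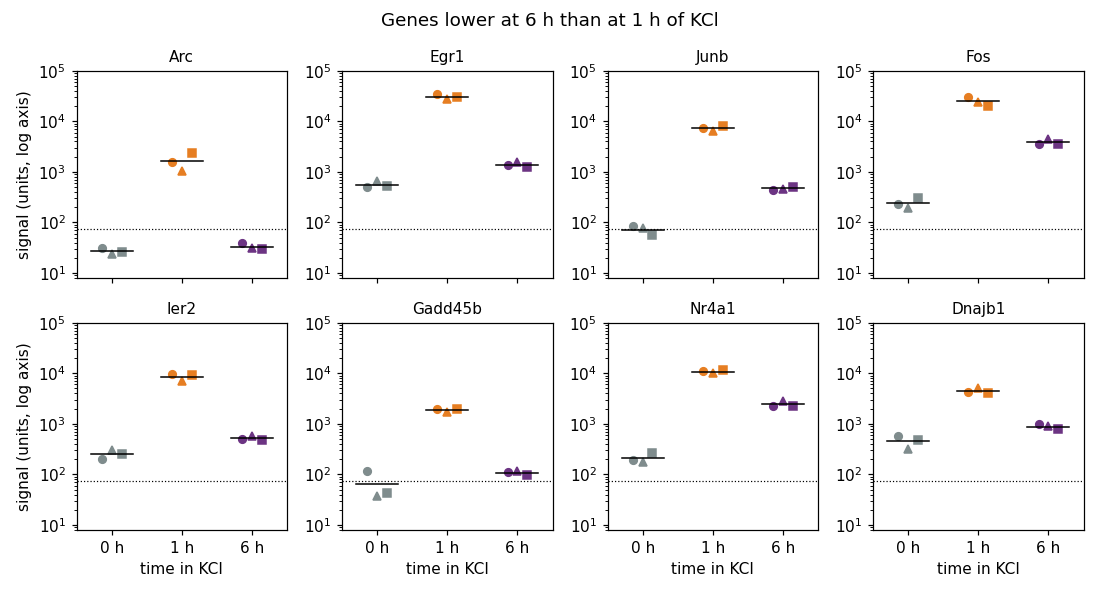
Signal in each array (units, log axis) at 0 h, 1 h and 6 h of KCl for 8 genes that fell from 1 h to 6 h; circles, triangles and squares are replicates 1, 2 and 3, bars are means of 3 arrays, and the dotted line is the background of 75.4 units. Arc is back under background at 6 h, while Fos, Nr4a1 and Dnajb1 remain above their 0 h arrays.

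Arc, a cytoskeleton-associated protein of dendrites that acts in the removal of AMPA receptors from synapses, also fell. It gave 1553, 1056 and 2396 units at 1 h and 39.1, 31.1 and 29.7 units at 6 h. Since all arrays at 6 h lay under background, the fall is a bound, at least 17.4-fold (means 1668 and 33.3 units, adjusted p = 1.31e-05). Here and below such a bound sets the brighter time's mean against the background level on the log2(value + 16) scale. Gadd45b, a stress-inducible protein linked to DNA demethylation, fell from 1876 ± 172 to 107 ± 10.5 units (log2 -3.94, SE 0.150, adjusted p = 7.69e-07), and of its other 2 probe sets 1 fell (log2 -2.58) and 1 did not pass (log2 -0.47). Dnajb1, an Hsp40 co-chaperone, gave 4225, 5137 and 3998 units at 1 h and 977, 906 and 775 at 6 h. On the selected probe sets it was the only 1 of 20 cytosolic heat shock genes that fell (log2 -2.31, adjusted p = 1.07e-05), although a second probe set of Dnaja1 fell too (log2 -0.42, adjusted p = 0.0393). Meanwhile 3 of them, Hspa4l, Hspa4 and Hsph1, which belong to the Hsp110 and related families, rose by 1.14, 0.80 and 0.72 on the log2 scale. The other 2 probe sets of Hspa4 did not pass (log2 0.27 and -0.05). Of the heat shock list 20% was called, beside 9.32% of all genes.

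The signals at 0 h, which were not in the fit, place these falls. The 0 h arrays had lower mean 5′ to 3′ ratios than those of 1 h or 6 h, at 0.391 ± 0.122 for Actb and 0.859 ± 0.195 for Gapdh (SD, n = 3). The part of this difference in the positions against 0 h, here and below, was not tested. There were 21 genes that fell after a mean at 1 h more than 4 times that at 0 h, a limit chosen with the values in view; both descriptions share the 1 h arrays, so no test is attached. At 6 h they kept between -4.36% and 39.4% of their 1 h gain over 0 h, with a median of 10.7%. The 0 h mean was at or under background for 7 of them, and for Arc and 1700029P11Rik, which marks the lower end, the 6 h mean was too. For 16 of the 21, all 6 h arrays still lay above all 0 h arrays, and for 5 (Jun, Arc, Btg2, Gadd45b and 1700029P11Rik) they overlapped. Egr1 kept 2.81%, Junb 5.56%, Fos 14.7% and Nr4a1 21.3%. The largest shares were those of Dusp6 (39.4%) and Dusp1 (34.3%), phosphatases that inactivate MAP kinases, and of Gadd45g (38.2%).

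**Figure D3:**
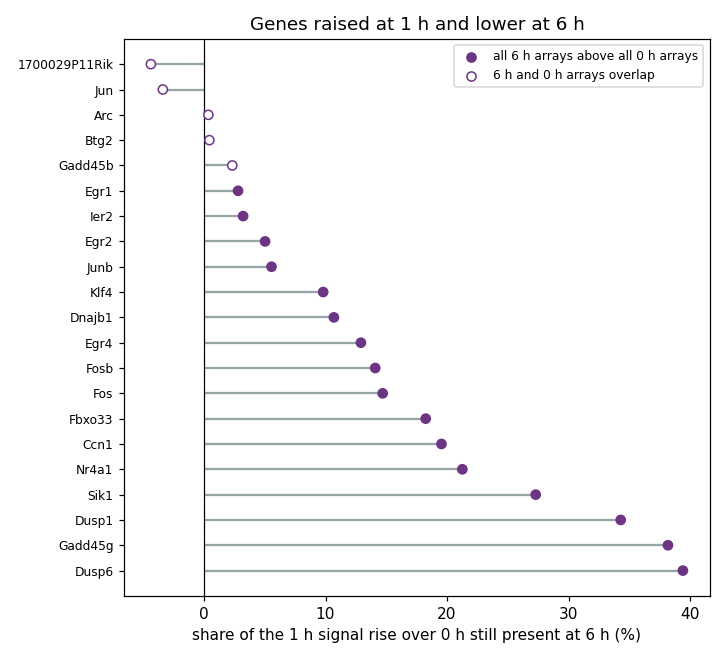
Share (%) of the signal gained from 0 h to 1 h that was still present at 6 h, for the 21 genes that fell after a 1 h mean more than 4 times the 0 h mean; filled points have all 6 h arrays above all 0 h arrays, open points overlap. The shares run from -4.36% for 1700029P11Rik to 39.4% for Dusp6, and the first, like Arc, had 0 h and 6 h means under background; there are 16 filled and 5 open points.

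Such genes were a minority of the falls. Of the 641 genes that fell, 98 had all 1 h arrays above the 0 h arrays, 442 overlapped with them at 1 h and 101 lay below them. Over all 12393 genes, 8.51% lay above, 81.3% overlapped and 10.2% lay below at 1 h. At 6 h, 544 of the 641 lay below all 0 h arrays, as did 21.3% of all genes. The commonest course among the falls was overlap with 0 h at 1 h and a level under 0 h at 6 h, seen for 409 genes (63.8%, beside 15.0% of all genes). These positions share their 1 h and 6 h arrays with the fit, so the falls had to differ and nothing is read from the contrast. Ntsr1, a receptor for the peptide neurotensin, was the only one of the 20 largest falls with all 1 h arrays already below 0 h. It gave 2103, 2102 and 1692 units at 0 h, 1244, 1293 and 1080 at 1 h and 110, 137 and 114 at 6 h. Its 3 times were separate, and the fall from 1 h to 6 h was 8.96-fold (log2 -3.16, SE 0.164, adjusted p = 6.94e-06).

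Some others of the 20 largest falls were not of the immediate early class. Chst12, a chondroitin sulfotransferase, Tmem175, an ion channel of lysosomes, and Dock2, an activator of the small GTPase Rac, had all 6 h arrays under background. They fell at least 2.09-fold, 2.67-fold and 1.61-fold, from means of 176, 244 and 139 units to 20.5, 32.4 and 16.3 units (adjusted p = 3.10e-03, 7.36e-03 and 1.07e-02). Dmac2, a factor in assembly of respiratory complex I, fell from 209 ± 51.9 to 39.5 ± 35.7 units (log2 -2.18, adjusted p = 2.18e-02), with 1 of 3 arrays above background at 6 h. The uncharacterised Gm13889 fell from 826 ± 122 to 159 ± 88.6 units (log2 -2.43, adjusted p = 4.94e-03). Its other, dimmer probe set did not pass (76.9 and 68.6 units, log2 0.20, adjusted p = 0.90).

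Secreted factors and the proteins that process and release them were among the rises, with 4 of the 20 largest. Of 26 measured secreted peptides, growth factors and processing enzymes, 10 rose and none fell in limma (4.15% and 5.17% of all genes). At an unadjusted p under 0.05, 14 were higher and 1 lower, and 4877 of all 22626 probe sets passed in either direction. The list's median log2 difference was 0.62. With median centring 11 rose and none fell. The summed signal of the list ran from 43643 to 54545 units at 1 h and from 78246 to 85016 at 6 h, without overlap.

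Pcsk1, the prohormone convertase that cuts peptide precursors in secretory granules, gave 105, 221 and 186 units at 1 h and 2237, 1979 and 1983 at 6 h. The 6 h arrays lay close together and far above those of 1 h, an 11.6-fold rise (log2 3.53, SE 0.225, adjusted p = 2.46e-05). Scg2, the granule protein secretogranin II, gave 4888, 5738 and 5107 units at 1 h and 16350, 16791 and 16018 at 6 h. It rose 3.12-fold (log2 1.64, SE 0.110, adjusted p = 3.48e-05), and its arrays within a time differed little. Bdnf, a neurotrophin that acts through the receptor TrkB, gave 514, 472 and 388 units at 1 h and 1980, 2314 and 2630 at 6 h. Its rise was 4.90-fold (log2 2.29, SE 0.145, adjusted p = 2.36e-05), with no overlap.

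Adcyap1, which encodes the neuropeptide PACAP, gave 525, 719 and 799 units at 1 h and 4054, 2895 and 2579 at 6 h (log2 2.19, SE 0.192, adjusted p = 2.14e-04). Igf1, insulin-like growth factor 1, gave 27.4, 27.0 and 26.9 units at 1 h on the selected probe set, all under background, and 401, 259 and 365 at 6 h. On that probe set the rise was at least 3.85-fold (means 27.1 and 342 units, adjusted p = 6.47e-04). The other 2 Igf1 probe sets of set A had 1 h means above background, and 1 rose (85.8 to 239 units, log2 1.37, adjusted p = 0.029) while 1 did not pass (126 and 189 units, log2 0.53, adjusted p = 0.31). The precursors of nociceptin (Pnoc, log2 1.54), substance P (Tac1, log2 1.39) and cholecystokinin (Cck, log2 0.68) also rose. So did Pam, which amidates peptides (log2 1.17), and Cpe, a carboxypeptidase that trims them (log2 0.50). Somatostatin (Sst, 7729 and 11412 units, log2 0.59, adjusted p = 0.27) and the granule protein gene Scg3 (5809 and 6006 units, log2 0.05) did not pass.

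**Figure D4:**
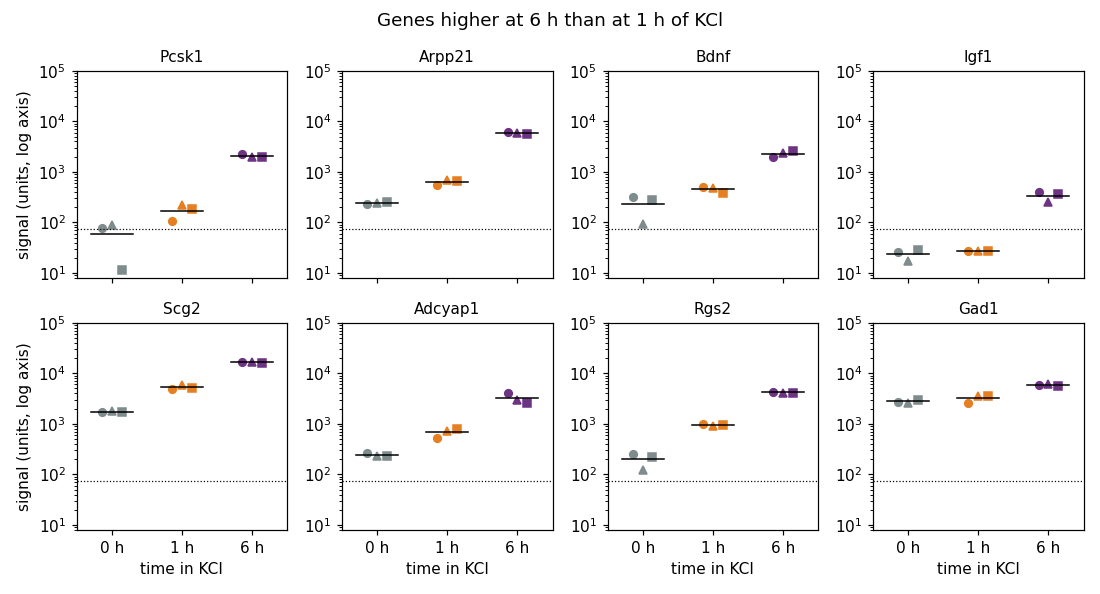
Signal in each array (units, log axis) at 0 h, 1 h and 6 h of KCl for 8 genes that rose from 1 h to 6 h; circles, triangles and squares are replicates 1, 2 and 3, bars are means of 3 arrays, and the dotted line is the background of 75.4 units. All 6 h arrays exceed all 1 h arrays in every panel, and the Igf1 probe set shown is under background at 0 h and 1 h.

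Genes of synaptic and signalling effectors split between the directions. Of 27 such genes, 8 rose and 7 fell (4.15% and 5.17% of all genes), with a median log2 difference of 0.38. The list includes Arc, Gadd45b and Sik1, whose 1 h means were more than 4 times those at 0 h. The split therefore depends on how genes were assigned to lists. Rgs2, which speeds the inactivation of G proteins, gave 1001, 927 and 931 units at 1 h and 4321, 4081 and 4119 at 6 h. That 4.32-fold rise (log2 2.11, SE 0.0933, adjusted p = 2.23e-06) had the smallest standard error among the 20 largest rises. Nptx2, a secreted pentraxin that clusters AMPA receptors, rose from 89.4 ± 42.7 to 705 ± 194 units (log2 2.81, adjusted p = 9.29e-04), with 1 of 3 arrays above background at 1 h, although its second probe set did not pass (log2 0.63). Sgk1, a kinase, rose by 1.75 on the log2 scale, the vesicle protein gene Syt4 by 1.25, the GTPase gene Rheb by 1.23 and Rgs4 by 1.20. Members that fell, beside Arc and Gadd45b, included Ppp1r15a, a phosphatase subunit of the stress response (log2 -1.16), the kinase Sik1 (log2 -1.13), the polo-like kinase Plk2 (log2 -1.12) and Cdk5r1, the activator of Cdk5 (log2 -0.61).

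Homer1, a postsynaptic scaffold gene with short activity-induced and long constitutive forms, was read differently by different probe sets. The probe set selected by the rule gave 132, 155 and 159 units at 1 h and 433, 403 and 364 at 6 h (log2 1.34, adjusted p = 4.25e-03). Another probe set on set A rose by 1.89 on the log2 scale, and the last of the 3 did not pass (log2 0.25). On set B, 1 probe set rose by 3.10 (adjusted p = 1.48e-05) and the other 2 did not pass (log2 0.16 and 0.13). Which transcript forms these probe sets read was not examined. Arpp21, a cAMP-regulated phosphoprotein, likewise had 2 set A probe sets that rose (log2 3.18 and 3.71) and 1 that did not pass (log2 -0.28). On set B its probe sets did not pass (log2 0.13 and -0.20). Its selected probe set gave 549, 696 and 673 units at 1 h and 6058, 5969 and 5691 at 6 h, a 9.08-fold difference with no overlap (SE 0.113, adjusted p = 4.53e-07).

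The other genes of the 20 largest rises were of mixed function. Rab3c, a GTPase of secretory vesicles, rose from 518 ± 229 to 2617 ± 377 units (log2 2.40), and Grasp, a scaffold that binds metabotropic glutamate receptors, from 66.7 ± 24.5 to 410 ± 58.0 (log2 2.39), with 1 of 3 arrays above background at 1 h. Wls, needed for Wnt secretion, rose by 2.08 on the log2 scale with another probe set rising (log2 2.53) and 1 not passing (log2 0.25). Brinp1 (log2 2.21), Fam126b (log2 2.64), Cgref1 (log2 2.05) and Prkg2, a cGMP-dependent kinase (log2 2.27; another probe set, 0.71, did not pass), also rose, as did Pdk3, which inhibits pyruvate dehydrogenase (log2 2.15), and Riox1, an oxygenase of ribosomal protein (log2 2.18). At 1 h, Prkg2 and Riox1 were above background on 1 of 3 arrays and Pdk3 on 2. Pacsin3, an endocytic adaptor, Tnfrsf12a, the receptor for the cytokine TWEAK, Plagl1, a zinc finger factor, and Ubn1, a histone chaperone subunit, had all 1 h arrays under background on their selected probe sets. On these they rose at least 3.25-fold, 3.27-fold, 1.94-fold and 1.69-fold (adjusted p = 3.66e-03, 1.78e-02, 3.42e-02 and 6.23e-03). The 6 h arrays of Tnfrsf12a were far apart, at 638, 142 and 242 units. Plagl1 and Tnfrsf12a each have a further probe set, of the cross-hybridising kind, that was above background at 1 h and rose (3615 to 8712 units, log2 1.29, and 160 to 445 units, log2 1.42).

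Against 0 h, 445 of the 514 rising genes had all 6 h arrays above all 0 h arrays, as did 13.5% of all genes, and 313 of these overlapped with 0 h at 1 h (8.96% of all genes took that course). A further 93 were already above 0 h at 1 h (4.12% of all genes), such as Rgs2, Bdnf and Scg2. Another 39 lay below 0 h at 1 h and above it at 6 h (0.379% of all genes), such as Cgref1 and Fam126b. There were 44 more that lay below 0 h at 1 h and overlapped with it at 6 h. These positions share their arrays with the fit and are given as a description.

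Promoter sequence is shown for 6 genes of these 2 sets, to let the early falls and late rises be read beside their nearest upstream bases. Each run holds the 250 bases before the start annotated by RefSeq on GRCm38.p6, 5′ to 3′ on the gene's strand. Capitals mark matches, on either strand, to the cAMP response element TGACGTCA or its shorter form TGACG, the AP-1 site TGANTCA or the EGR site GCGNGGGCG. The window of Rab3c, a rising gene chosen in the same way, held no such match and is not printed. Fos lies at chr12:85473640-85473889 (+), Junb at chr8:84978749-84978998 (-), Gadd45b at chr10:80929841-80930090 (+) and Ntsr1 at chr2:180499726-180499975 (+). Pcsk1 lies at chr13:75089607-75089856 (+) and Igf1 at chr10:87860861-87861110 (+).
Fos: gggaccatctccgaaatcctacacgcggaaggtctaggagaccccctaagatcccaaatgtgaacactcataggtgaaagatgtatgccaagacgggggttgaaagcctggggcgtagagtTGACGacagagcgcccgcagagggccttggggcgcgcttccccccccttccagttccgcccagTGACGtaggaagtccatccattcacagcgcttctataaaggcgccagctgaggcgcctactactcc
Junb: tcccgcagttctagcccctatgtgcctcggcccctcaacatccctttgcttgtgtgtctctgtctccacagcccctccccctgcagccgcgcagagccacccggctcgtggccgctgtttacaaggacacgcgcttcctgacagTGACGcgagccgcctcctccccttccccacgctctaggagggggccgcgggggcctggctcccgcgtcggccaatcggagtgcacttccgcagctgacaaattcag
Gadd45b: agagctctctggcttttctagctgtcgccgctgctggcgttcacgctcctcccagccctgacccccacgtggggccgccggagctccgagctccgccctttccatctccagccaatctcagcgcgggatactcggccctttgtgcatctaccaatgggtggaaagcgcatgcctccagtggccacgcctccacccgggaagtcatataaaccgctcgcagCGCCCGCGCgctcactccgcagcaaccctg
Ntsr1: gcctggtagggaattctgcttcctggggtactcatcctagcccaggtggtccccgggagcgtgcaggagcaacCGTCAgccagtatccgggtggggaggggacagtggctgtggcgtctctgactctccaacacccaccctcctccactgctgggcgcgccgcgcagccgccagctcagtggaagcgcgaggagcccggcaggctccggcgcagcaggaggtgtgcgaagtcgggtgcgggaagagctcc
Pcsk1: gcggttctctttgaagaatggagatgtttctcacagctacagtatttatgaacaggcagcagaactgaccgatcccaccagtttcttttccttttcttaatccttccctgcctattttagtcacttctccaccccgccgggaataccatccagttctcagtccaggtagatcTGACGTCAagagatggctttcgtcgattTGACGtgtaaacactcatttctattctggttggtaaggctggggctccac
Igf1: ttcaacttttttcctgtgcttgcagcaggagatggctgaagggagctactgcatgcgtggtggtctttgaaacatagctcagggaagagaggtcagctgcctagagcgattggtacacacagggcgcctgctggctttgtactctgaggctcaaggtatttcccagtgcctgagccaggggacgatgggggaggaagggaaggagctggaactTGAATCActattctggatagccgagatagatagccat

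Of the 40 genes with the largest changes, 34 had a RefSeq entry and 25 had a single annotated start, 13 that fell and 12 that rose. The short form TGACG, which every full element also contains, stood in 9 of the 13 windows of falling genes, 3 of the 12 of rising genes and 17.5% of all 22862 windows. The full element TGACGTCA stood in 1 of 13 (Btg2), 2 of 12 (Pcsk1 and Ubn1) and 1.61% of all windows. The EGR site stood in 6 of 13, 2 of 12 and 4.47%, the AP-1 site in 0 of 13, 1 of 12 (Igf1) and 6.96%, and the CArG box in none of either set and 1.38% of all. These are letter matches within 250 bases, not measured binding.

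The list of MAP kinase brakes and related inhibitors split evenly, with 4 rises and 4 falls among 20 genes and a median log2 difference of 0.07. These calls were 40% of the list, beside 9.32% of all genes. Dusp1 gave 6190, 4801 and 6018 units at 1 h and 1940, 2392 and 1964 at 6 h (log2 -1.42, SE 0.131, adjusted p = 2.59e-04). Dusp6 fell by 1.16 on the log2 scale, while the phosphatase genes Dusp14 and Dusp3 rose by 0.99 and 0.91. Among 18 genes of mRNA decay, 3 fell and 1 rose (22.2% called). The related antiproliferative genes Btg2, Tob1 (log2 -1.02) and Btg1 (log2 -0.85) fell, and the RNA-binding protein gene Elavl2 rose (log2 0.94). Other probe sets of Elavl2 did not pass (log2 0.61, 0.52, 0.23 and 0.22).

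Splicing factors mostly fell where they changed. Of 25 SR protein, hnRNP and kinase genes, 6 fell and 1 rose, and 18 did not pass (28% called, beside 9.32% of all genes). With median centring 4 fell and 1 rose. Srsf5, an SR protein, gave 7861, 7187 and 7162 units at 1 h and 3423, 3934 and 4078 at 6 h (log2 -0.96, SE 0.107, adjusted p = 8.41e-04), beside 2804, 2563 and 3325 at 0 h. Srsf3 gave 1719, 1884 and 1723 units at 1 h and 978, 1031 and 837 at 6 h (log2 -0.90, adjusted p = 1.55e-03), beside 1510, 1664 and 2042 at 0 h. Both were clearly separated between 1 h and 6 h, and Srsf3 at 6 h lay under its 0 h arrays while Srsf5 did not. Clk1, a kinase that phosphorylates SR proteins, fell by 0.65 on the log2 scale, and Ptbp1, Tra2b and Ptbp2 by 0.60, 0.52 and 0.42.

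Of 17 cholesterol synthesis genes, 8 rose and 2 fell (58.8% called, beside 9.32% of all genes), with a median log2 difference of 0.52. Cyp51, the sterol 14-demethylase, gave 2000, 2019 and 1952 units at 1 h and 4261, 4463 and 4645 at 6 h. Its 2.23-fold rise (log2 1.16, SE 0.0911, adjusted p = 1.09e-04) was shared by Sc5d, Pmvk, Msmo1 and Idi1 (log2 1.17, 1.16, 1.10 and 1.02). Mvk, mevalonate kinase, and Dhcr7, which catalyses a last step of the pathway, fell by 0.99 and 0.64 on the log2 scale. Hmgcs1, which makes the HMG-CoA of the pathway, did not pass on its selected probe set (22193 and 31763 units, adjusted p = 0.073). Another set A probe set of Hmgcs1 rose (7397 to 12287 units, log2 0.73, adjusted p = 0.0032). One of the cross-hybridising kind rose too (log2 0.58, adjusted p = 0.043). A further one on set A (log2 0.36) and a dim one on set B (log2 -1.67) did not pass. Of 20 glycolysis and glucose uptake genes, 5 rose and 3 fell (40% called). The neuronal glucose transporter gene Slc2a3 rose by 0.83, Slc16a1, a lactate transporter gene, by 0.69 and Pgam1 by 0.62 on the log2 scale. Pfkm, Aldoc and Hk1 fell by 0.65, 0.62 and 0.56.

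The stress and housekeeping lists differed in the share of genes called, which was 9.32% over all genes. It was 19.2% for the unfolded protein list, 16% for cell cycle, 10.5% for Notch, Hes and Id and 10% for clock genes. For ribosomal protein, respiratory chain and proteasome genes it was 5.88%, 4.17% and 3.45%. Of 26 unfolded protein response and ATF4 target genes, 4 rose (Chac1, log2 1.30, Sesn2, 1.00, Asns, 0.95, and Xbp1, 0.46) and Dnajb9 fell (log2 -0.71). The chaperone gene Hspa5 did not pass (log2 0.14, adjusted p = 0.49). One gene rose and none fell among 17 ribosomal protein genes, 24 respiratory chain genes and 29 proteasome genes each. With median centring 5, 4 and 5 rose and none fell. At an unadjusted limma p under 0.05, 9 ribosomal, 9 respiratory chain and 7 proteasome genes were higher, with 0, 0 and 1 lower. Of all 22626 set A probe sets, 4877 had such a p in either direction. The median log2 differences were 0.39, 0.25 and 0.15, beside -0.08 for all genes. Summed signals did not overlap for ribosomal proteins (104590 to 132100 units at 1 h, 138110 to 170380 at 6 h), the respiratory chain (97975 to 122760 and 125150 to 140460) or the unfolded protein list (43559 to 46416 and 49175 to 52152). Those of the proteasome overlapped (65206 to 72302 and 70882 to 77240). The proteasome gene that rose, Psmc6 (log2 0.52), had 2 other probe sets, of which 1 fell (log2 -0.65) and 1 did not pass (log2 -0.58). Of 25 cell cycle genes, the kinase inhibitors Cdkn1b (log2 1.09) and Cdkn1a (log2 0.91) rose, though another Cdkn1b probe set did not pass (log2 -0.26). The replication helicase subunits Mcm6 and Mcm7 fell by 1.00 and 0.94 on the log2 scale. Other set A probe sets of Mcm7 (log2 -0.31, -0.38 and -0.95) and Mcm6 (log2 -0.95) did not pass, nor did a set B one of Mcm6 (log2 -0.03). Of 20 circadian clock genes 2 rose, Cry2 (log2 0.96) and Nfil3, and of 19 Notch, Hes and Id genes 2 rose, the Notch mediator Rbpj (log2 0.87) and Id1 (log2 0.68).

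Genes of synapses and channels mostly did not pass. The called share was 21.4% for inhibitory synapse, 19.0% for excitatory synapse, 14.3% for presynaptic vesicle and 0% for channel genes, beside 9.32% of all genes. None of 24 voltage-gated channel genes passed in limma, and with median centring 1 rose. An unadjusted p under 0.05 was found for 6 of them (3 in each direction), beside 4877 of all 22626 probe sets. Of 21 presynaptic vesicle genes, Syt4 and Snap25 (log2 0.42) rose and Napb fell (log2 -0.55). Of 14 inhibitory synapse genes, Gad1, the larger form of the GABA-synthesizing enzyme, rose. Abat and Slc12a5, the GABA transaminase and the chloride exporter KCC2, fell by 0.73 and 0.72 on the log2 scale. Another probe set of Abat (log2 0.17) and of Slc12a5 (log2 -0.66) did not pass. Gad1 gave 2569, 3505 and 3480 units at 1 h and 5806, 6047 and 5561 at 6 h (log2 0.88, SE 0.131, adjusted p = 3.73e-03), without overlap. Gad2, the other form of the enzyme, gave 305, 191 and 277 units and then 266, 259 and 331 (log2 0.16, adjusted p = 0.77), which overlapped. On set B a Gad2 probe set gave 1904, 1539 and 1991 units and then 2771, 2955 and 2784, which did not overlap and did not pass (log2 0.74, unadjusted p = 0.00461, adjusted p = 0.196). Whether Gad1 and Gad2 differed in response was not tested. Of 21 excitatory synapse genes, 2 rose and 2 fell, with a median log2 difference of -0.39. Gria1, an AMPA receptor subunit, fell from 1774 to 998 units (log2 -0.83, adjusted p = 2.78e-03). Gria2, another AMPA receptor subunit, differed by a like amount but did not pass (2372 and 1265 units, log2 -0.82, adjusted p = 0.15).

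Among the 18 neuronal markers, 5 rose and 2 fell. The called share was 38.9% for neuronal, 20% for astrocyte and 9.09% for oligodendrocyte lineage markers, beside 9.32% of all genes. Nefl, the light neurofilament subunit, gave 1913, 1950 and 1290 units at 1 h and 6879, 4729 and 4349 at 6 h (log2 1.62, SE 0.199, adjusted p = 1.37e-03). Nefm rose by 1.19, and Tubb3 and Dcx, both of young neurons, fell by 0.57 and 0.50 on the log2 scale, calls that were lost with median centring. Vim, an astrocyte list member, gave 11338, 9515 and 9340 units at 1 h and 17671, 14880 and 17243 at 6 h (log2 0.72, adjusted p = 9.59e-03). Clu also rose (log2 0.59), although its other 3 probe sets did not pass (log2 0.12, 0.35 and 0.36), Aldoc fell, and 12 of the 15 astrocyte markers did not pass. Olig2, a factor of the oligodendrocyte lineage, rose (log2 0.67) as the only one of 11 markers of that lineage. No microglial or vascular marker passed in limma. At an unadjusted p under 0.05, 1 microglial marker was higher and 1 lower, and 1 vascular marker was lower. Of all 22626 probe sets, 4877 had such a p.

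**Figure D5:**
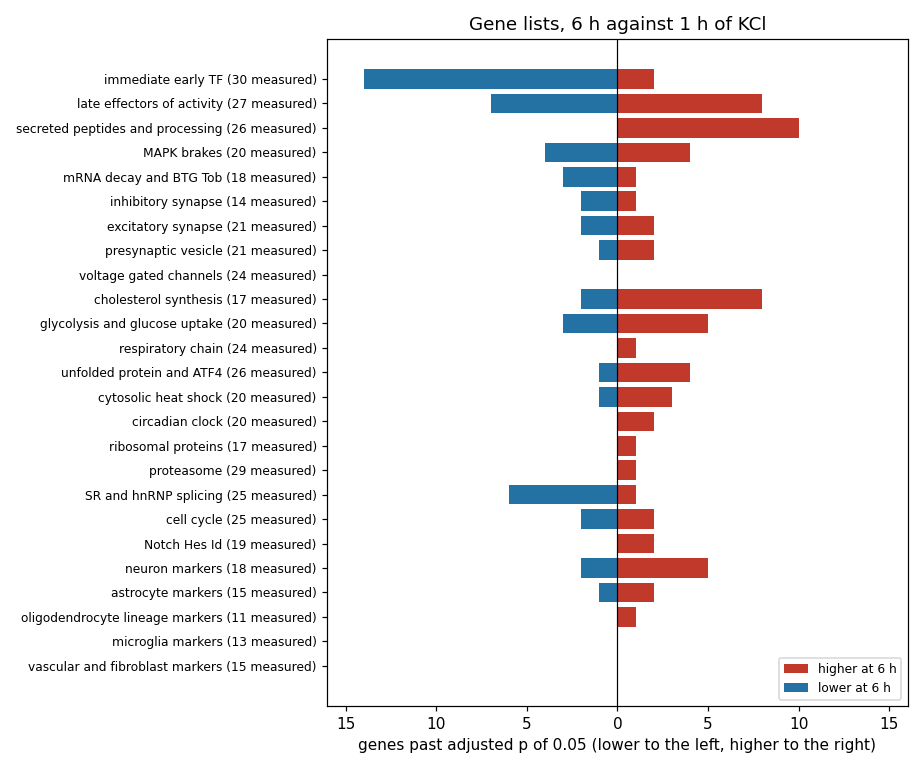
Number of genes past an adjusted p of 0.05 (limma) in each of 25 gene lists, lower at 6 h to the left in blue and higher at 6 h to the right in red, with the number measured beside each name. Immediate early factors extend furthest to the left (14) and secreted factors furthest to the right (10).

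Array set B, hybridised separately and carrying other probe sets, gave the same contrast for genes that set A lacks. Here 186 of 22511 probe sets differed (limma, 0.826%), 103 higher (0.458%) and 83 lower (0.369%) at 6 h, and 1883 had an unadjusted p under 0.05. The median residual SD was 0.711 on the log2 scale, against 0.302 on set A. Its counts also moved when single arrays were left out, from 47 without 1 h replicate 3 to 143 at most. Levels are on another scale than those of set A. Npas4, a transcription factor specific to neurons and induced by calcium, gave 40562, 32312 and 24395 units at 1 h and 14125, 13594 and 6838 at 6 h (log2 -1.52, SE 0.207, adjusted p = 9.84e-03). Egr3 gave 7874, 4173 and 6245 units at 1 h and 1033, 427 and 566 at 6 h (log2 -3.25, adjusted p = 1.70e-03), whereas its set A probe set did not pass (log2 -0.83). Both had separate arrays at the 2 times. Set B probe sets of Adcyap1 (log2 2.61), Rgs2 (2.30), Igf1 (1.81), Grasp (1.32) and Nefl (1.02) rose on set B as on set A, while a further one of Rgs2 (1.46) and of Grasp (0.52) did not pass. Of the 40 genes with the largest set A changes, 15 had set B probe sets, 23 in all: 4 were called in the set A direction, 0 in the other, and 19 did not pass. Of the latter, those of Ubn1 (log2 -0.01), Wls (0.05) and Dmac2 (0.09) were near 0, those of Rab3c were 0.60 and 0.67, and those of Fam126b ran from 0.20 to 1.39. Those of Arpp21 were 0.13 and -0.20 (SE 0.94 and 0.92). Dock2, which fell on set A, gave -0.02 and 1.55 (SE 0.25 and 0.98). Tmem175 (-1.88), Pacsin3 (1.04 and 0.83), Prkg2 (1.07) and Plagl1 (0.34) had the set A sign. Of 100 probe sets present on both sets, 16 were called on set A and 15 of these had the same sign on set B.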

How the data were processed

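Per the labels, RNA from mouse cortical neuron cultures was purified on RNeasy columns, labelled with biotin and hybridised to Affymetrix arrays. The authors deposited 1 linear intensity per probe set and array. How probes were summarised is not stated in the labels or headers. The values show that the authors had scaled each set A array to a trimmed mean near 496 units. The deposited set A scale was kept, 16 was added and log2 taken, so fold changes of dim genes are understated. Set B values below 0, found on the replicate 1 arrays (27.4% on 1 h replicate 1), were set to 0, and the arrays were quantile-normalized.

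The 3 arrays of 6 h and 3 of 1 h were fitted in limma 3.58.1 (R 4.3.3; lmFit, eBayes with intensity trend), without the 0 h arrays. The two-sided p-values were Benjamini-Hochberg adjusted over all probe sets but the 64 controls. Robust fits used statmod 1.5.0, data handling the data.table package, version 1.17.8, and figures Python 3.11.15, matplotlib 3.10.9 and pandas 2.3.3. On simulated set A data, 88 of 100 probe sets changed by 2 on the log2 scale and 43 of 100 changed by 1 were recovered, with 3 false calls. The number of arrays limits precision.

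Symbols came from GEO's platform annotation updated through RefSeq: 20380 set A probe sets had 1, 691 several and 1555 none, and only the first kind was named. Each gene was read on its probe set of highest mean, leaving out cross-hybridising ones where another existed. Named are the 20 largest rises and falls past the threshold with separate arrays and a higher mean above background, up to 4 called members per direction and the 2 brightest not called of each of 25 lists, and 10 fixed genes. A few further list members, and Egr3, were named after their values were seen. The 25 lists hold 583 distinct genes, 506 of them measured and 113 called (64 up, 49 down). The members and lists were chosen with earlier results of these data known. The labels do not say what a replicate number marks, so the numbers were not taken to pair the arrays. Deviations of same-numbered arrays from their time's mean correlated at 0.139, 0.0943 and 0.0456. These set A correlations are weak but positive. On set B, replicate 1 arrays of both times held values below 0, such as -381 at 1 h and -408.6 at 6 h for a Dock2 probe set. Those arrays thus shared a trait, and the main fits of both sets leave the replicate number out. Whether same-numbered set A arrays belong together remains undecided. Alternatives covered the added constant, a filter, scaling, variance model, replicate block, Actb ratio and single arrays.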

Additional observations from a re-analysis of the deposited data

How the results depend on the processing

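The set A count of 1805 (841 higher, 964 lower) stayed between 1679 and 2115 with another added constant, a low-signal filter, quantile normalization, median centring, a robust variance model or all 9 arrays in 1 model. Without the intensity trend limma called 456 (208 higher, 248 lower), and with the Actb ratio as a term 90 (56 higher, 34 lower). With 1 array left out the count ran from 771 to 1792 (357 to 905 higher, 414 to 887 lower). The replicate block, for numbers not taken as pairs, gave 2311 (1131 higher, 1180 lower) on set A and 349 on set B, where the deposited scale gave 57 against 186 and leaving out 1 array 47 to 143. Of the 40 largest changes, 34 stayed called without the trend, 22 with the Actb ratio and 35 to 38 with 1 array left out. The Gapdh ratio difference of 0.0381 ran from -0.0148 to 0.0886 with 1 array left out, reversed without 1 h replicate 3. Among other probe sets of called named genes, 43 gave the same call, 49 lost it and 1, of Psmc6, reversed it (log2 -0.65). The causes of these moves were not tested. Of the 163 named genes, 57 lost or missed the call without the trend and 83 with the Actb ratio. Set B arrays recovered 23 of 100 simulated log2 changes of 2, placed only in probe sets above the median signal, so differences not called there are undecided.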
